A study of Mus musculus with 126 samples.

Results

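Hoxa13, Hoxb13, Hoxd13, Hoxd12, Hoxd11, Hoxd10, Cdx1 and Cdx2 are homeobox genes that mark position along the gut, and they were chosen by gene symbol as 8 of the 24883 rows in each expression table of a mouse colon RNA-seq study. All 8 were found in each of 7 tables, 1 table per condition, and 7 of them were among the 11377 rows that passed a filter on low values. Hoxd12 did not pass the filter, so its tests come from a fit without it. Each of the 7 conditions had 18 libraries, in sets of 3 taken at 0, 4, 8, 12, 16 and 20 h after lights on (zeitgeber time, ZT). Of these conditions, 3 were genotypes on normal chow available at all times: wild type mice, mice in which Bmal1 was knocked out in the gut and mice in which the mineralocorticoid receptor (MR, gene Nr3c2) was knocked out in the gut. The knockout mice were 8 to 12 weeks old, and the sources used here give neither the age of the wild type mice nor the promoter that drove the deletions. The other 4 conditions were 8-week-old male C57BL/6 mice that received low salt or high salt food only by night or only by day in a 12 h light and 12 h dark cycle. All samples were labelled as colon, without a position along it, so sampling position and regulation of these genes cannot be told apart in these data. The labels do not say that each library was a separate animal, so p-values measure the spread between these samples.

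Hox genes lie in 4 clusters, and within a cluster the gene order follows the order in which the genes are active from head to tail of the embryo. Genes numbered 13 lie at the end of a cluster and mark the most posterior parts of the body, among them the hindgut, and their expression persists in the epithelium of the adult colon. Hoxa13 and Hoxd13 are needed for the hindgut and the anorectal region, Hoxb13 is known from the colon, rectum and prostate, and Hoxd12, Hoxd11 and Hoxd10 are their posterior neighbours in the Hoxd cluster. Cdx2 is the transcription factor that gives the intestinal epithelium its identity, and Cdx1 is its close relative. Bmal1 (Arntl) is the activating subunit of the circadian clock and binds the E-box motif, while MR is the receptor for aldosterone, the hormone of salt retention in the distal colon.

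The promoter windows of the 4 Hoxd genes are shown because these genes changed together and lie side by side on chromosome 2. Each window is the 250 bases before a RefSeq start on the plus strand of GRCm38.p6 (mm10), printed 5′ to 3′, with the E-box CACGTG in capitals. The Hoxd13 window (chr2:74667975-74668224) holds an E-box 229 bases before the start, and the Hoxd12 window (chr2:74674763-74675012) holds none. The window of the downstream Hoxd11 start (chr2:74682073-74682322), which lies in an intron of a longer GENCODE transcript of that gene, holds an E-box 96 bases before the start. The Hoxd10 window (chr2:74691641-74691890), which lies in an intron of the overlapping gene model Gm28309, holds an E-box 73 bases before the start.
Hoxd13: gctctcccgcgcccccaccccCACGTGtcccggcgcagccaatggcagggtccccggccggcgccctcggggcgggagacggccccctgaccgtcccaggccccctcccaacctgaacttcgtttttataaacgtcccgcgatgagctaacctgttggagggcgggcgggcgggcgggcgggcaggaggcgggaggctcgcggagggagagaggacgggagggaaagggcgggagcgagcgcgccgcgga
Hoxd12: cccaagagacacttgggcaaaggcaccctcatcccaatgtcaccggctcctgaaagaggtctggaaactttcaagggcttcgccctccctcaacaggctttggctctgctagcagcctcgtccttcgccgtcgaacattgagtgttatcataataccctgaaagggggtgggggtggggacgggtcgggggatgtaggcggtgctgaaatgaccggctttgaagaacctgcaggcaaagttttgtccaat
Hoxd11: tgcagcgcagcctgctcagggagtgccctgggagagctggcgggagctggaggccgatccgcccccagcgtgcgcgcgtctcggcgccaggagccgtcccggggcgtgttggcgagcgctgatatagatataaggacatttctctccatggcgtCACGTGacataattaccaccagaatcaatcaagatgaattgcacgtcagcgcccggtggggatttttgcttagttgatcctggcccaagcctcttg
Hoxd10: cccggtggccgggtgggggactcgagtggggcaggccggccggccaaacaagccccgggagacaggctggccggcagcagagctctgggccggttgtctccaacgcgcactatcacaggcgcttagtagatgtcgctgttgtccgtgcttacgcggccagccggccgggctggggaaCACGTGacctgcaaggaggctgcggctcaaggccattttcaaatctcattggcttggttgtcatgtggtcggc
The E-box reads the same on both strands and was found in 6.04% of 32536 promoter windows of this length. That share was not matched for GC content. The windows with an E-box were 74.4% GC (Hoxd13), 60.4% (Hoxd11) and 65.6% (Hoxd10), against a median of 52.4% over all windows. The other motifs, searched on both strands, were the CDX motif TTTATG (10.8% of windows), the HOX13 motif TCGTAAA (0.482% of windows) and the steroid receptor half-site TGTTCT (16.0% of windows). Among the 7 windows used of 6 member genes, 1 held any of these other motifs, the window of the upstream Hoxd11 start (chr2:74679308-74679557), with a CDX motif 87 bases before the start. The windows of Hoxa13 and Cdx2 held none of the 4 motifs, no 2 matches overlapped, and no windows of Hoxb13 and Cdx1 were used. A match describes these letters and is not a binding site.

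In GENCODE vM21 on mm10, Hoxd13 spans 74668310 to 74671599, Hoxd12 spans 74675013 to 74677705, Hoxd11 spans 74679557 to 74687016 and Hoxd10 spans 74691924 to 74695105, all on the plus strand of chromosome 2. Hoxd11 and Hoxd10 overlap the gene model Gm28309 (74683446 to 74694194) on the same strand, so their reads may be shared with it. Hoxa13 lies on chromosome 6 (52257694 to 52260880, minus strand), Hoxb13 on chromosome 11 (96194316 to 96197447, plus strand), Cdx2 on chromosome 5 (147300805 to 147307270, minus strand) and Cdx1 on chromosome 18.

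The values are FPKM (sequenced fragments relative to transcript length and to library depth) divided by a scale factor per library, and are called rescaled FPKM. Mapped fragments per library, estimated from the steps that single fragments leave in the values of rare genes, were about 17800000 to 38000000 with a median of 27500000. At that depth Hoxb13 rested on about 865 to 17303 fragments per library and Hoxd12 on about 1.9 to 145, so Hoxd12 has the widest counting error of the 8. Nr3c2 was at 7.05 to 23.2 rescaled FPKM in wild type and at 1.66 to 5.33 in the MR knock out, without overlap. Arntl was at 2.25 to 19.2 in wild type (median 8.27) and at 2.87 to 6.28 in the Bmal1 knock out (median 4.02), with overlap. All 12 colon epithelium markers were above the filter, with a summed median level of 11677 in wild type, 11427 in the Bmal1 knock out and 14383 in the MR knock out. These markers did not move together. Krt8, Krt18, Krt19 and Krt20 had higher means in the Bmal1 knock out than in wild type, as for Krt18 (302 in wild type, 785 in the knockout). The others had lower means, as for Epcam (505 and 349) and Slc26a3 (217 and 59.9). In the MR knock out Cdh1, Slc26a3 and Muc2 had lower means and the others higher ones. Of 9 smooth muscle markers 2 passed the filter, and the sum of all 9 stayed between 3.42 and 12.0 in all libraries. The sum of 5 squamous markers of the anal canal was at most 2.79. Its median was 0.506 in wild type, 0.932 in the Bmal1 knock out and 0.878 in the MR knock out. Krt5 was at 0 in 124 libraries and Trp63 in 120, against 18 for Krt4, 14 for Krt13 and 0 for Krt14. Krt13 had means of 0.060 in wild type, 0.350 in the Bmal1 knock out and 0.396 in the MR knock out. The summed markers of enteric neurons and glia (at most 1.03), blood vessels (at most 1.93) and pancreas and fat (at most 0.52) were also low. The 18 wild type libraries had a median scale factor of 1.22, and 14 libraries had a factor under 0.6, 9 of the Bmal1 knock out and 5 of the high salt night fed mice. This cut lies in a continuous range, with 0.566 the highest factor below it and 0.621 the lowest above it. A length score, the correlation across genes between a library's deviation from the gene means and transcript length, was 0.357 ± 0.204 (SD, n = 18) in wild type, -0.173 ± 0.264 in the Bmal1 knock out and 0.0099 ± 0.246 in the MR knock out.

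Hoxb13 was the most abundant Hox gene of the colon and made up 49.7% of the summed level of all 39 Hox genes. FPKM are per length, so levels can be set side by side between genes. Averaged over all libraries, the Hoxb genes summed to 179.8 rescaled FPKM, the Hoxa genes to 46.2, the Hoxd genes to 15.9 and the Hoxc genes to 0.012, with Hoxc12 and Hoxc13 at 0 throughout. Hoxb13 averaged 120.3, Hoxd13 averaged 9.64, Hoxa13 averaged 6.36, Hoxd10 averaged 1.77, Hoxd11 averaged 1.26 and Hoxd12 averaged 0.661. Within the Hoxd cluster the level therefore did not fall in order of position, since Hoxd12, next to Hoxd13, was the lowest of the 4 members. Cdx1 averaged 170.2 and Cdx2 averaged 100.5, so both Cdx genes were in the range of Hoxb13. The median share of Hoxb13 in the summed Hox level was 54.1% in wild type, 36.03% in the Bmal1 knock out, 44.3% in the MR knock out, 55.3% in the low salt night fed, 56.5% in the low salt day fed and 47.6% in each high salt group.

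**Figure D1:**
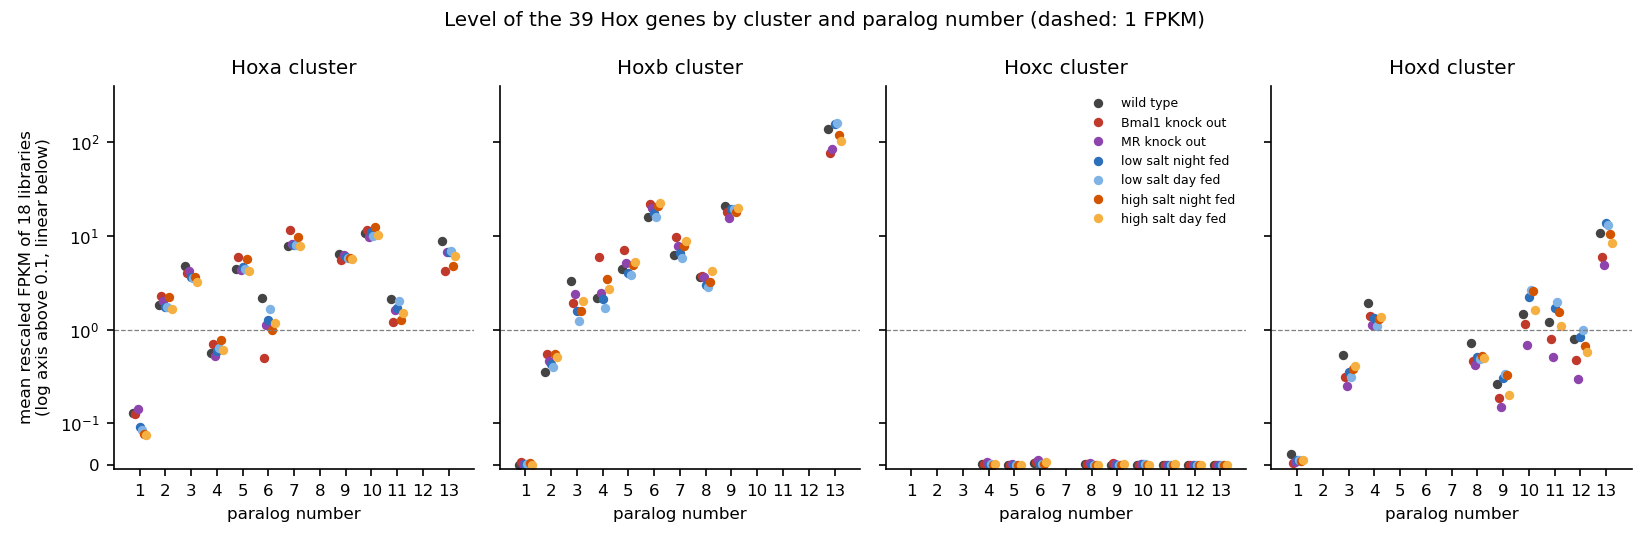
Mean rescaled FPKM of 18 libraries (vertical axis, logarithmic above 0.1 and linear below) of each of 39 Hox genes by paralog number within its cluster (horizontal axis), with 1 point per condition. Hoxb13 stands above all others in each condition, the Hoxc genes lie at or near 0, and Hoxd13 stands above its Hoxd neighbours.

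Across the 7 conditions the posterior Hox genes were lowest in a knockout genotype and Cdx2 was highest there. Hoxb13 was ordered from low salt day fed (mean 159.9) and low salt night fed (159), through wild type (139.8), high salt night fed (119), high salt day fed (104) and the MR knock out (84.1) to the Bmal1 knock out (76.1). Each of the 6 neighbouring pairs in this order differed by less than 1 SD between libraries, as was also so for Hoxa13, Hoxd10 and Cdx1. Hoxd13 was ordered from low salt night fed (13.8) to the MR knock out (4.85), and 4 of its 6 neighbouring pairs lay within 1 SD. Hoxd12 and Hoxd11 were also lowest in the MR knock out, with 5 and 3 of 6 neighbouring pairs within 1 SD. Cdx2 ran the other way, from the MR knock out (129.5) and the Bmal1 knock out (129), which were within 1 SD of each other, through high salt day fed (103) and high salt night fed (95.7) to wild type (83.1), low salt night fed (82.1) and low salt day fed (81.3), which were within 1 SD of each other. Cdx1 ranged from 152 in wild type to 198 in low salt day fed. The extremes over all libraries were widest for the lowly expressed Hoxd genes, with Hoxd10 between 0.0697 in an MR knock out library at ZT20 and 5.69 in a high salt night fed library at ZT8, against 109 to 239.95 for Cdx1.

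**Figure D2:**
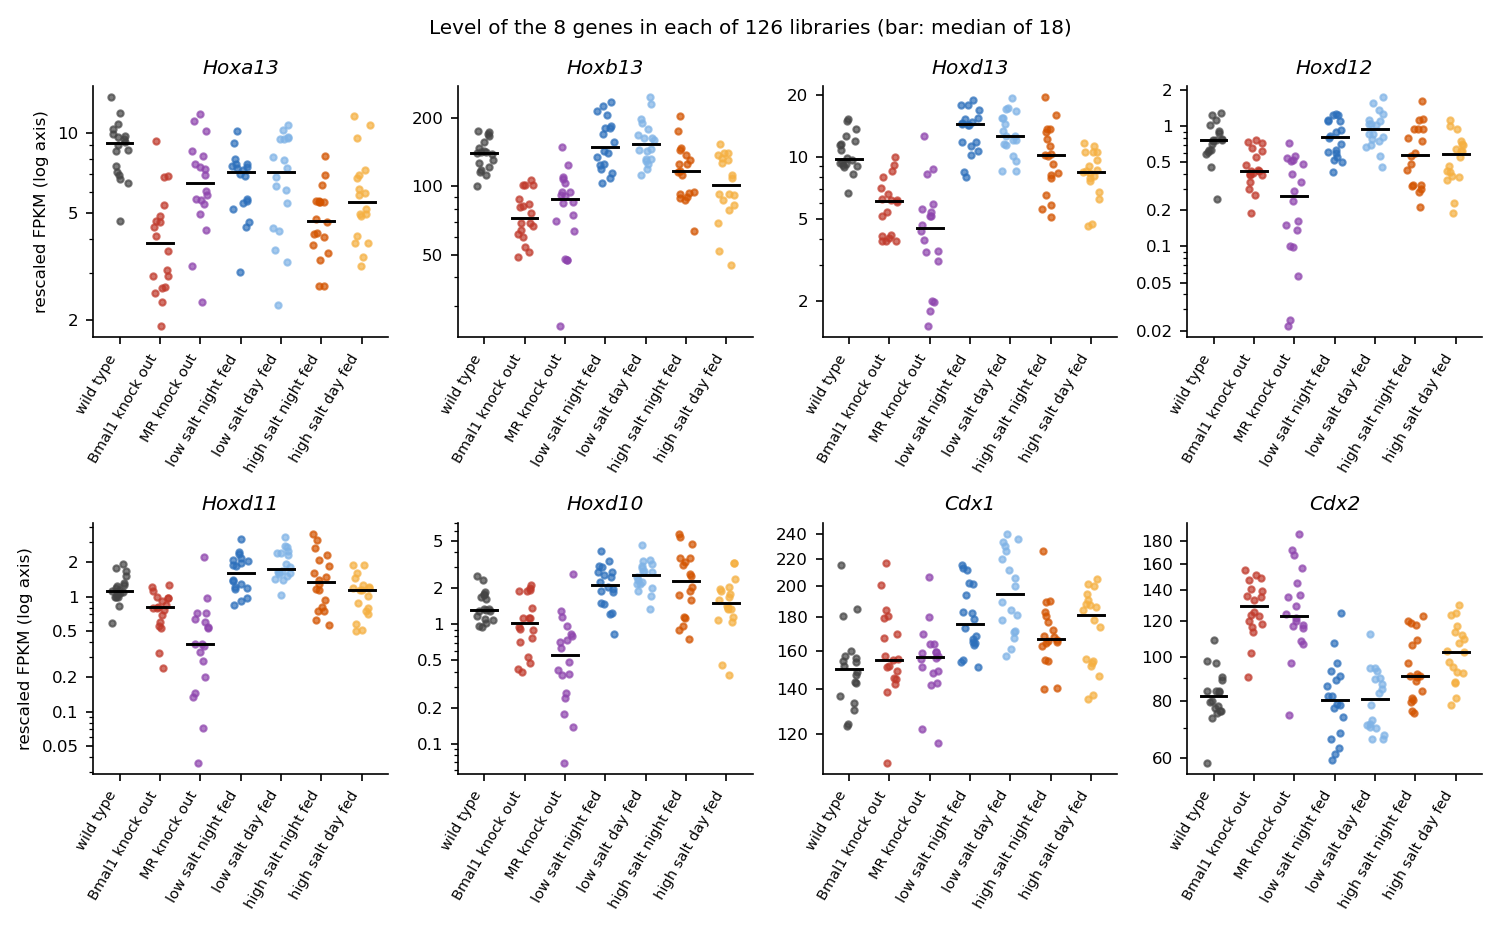
Rescaled FPKM (vertical axis, logarithmic) of each of the 8 genes in each library by condition, 1 point per library and a bar at the median of 18. Hoxb13 medians are 141 in wild type, 72.9 in the Bmal1 knock out and 88.0 in the MR knock out, while the Cdx2 medians are 82.1, 129 and 123.

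Loss of Bmal1 in the gut went with lower levels of the posterior Hox genes and a higher level of Cdx2. Of the 7 members tested, 5 were lower and 1 was higher in the Bmal1 knock out, against 49.2% lower and 31.1% higher of all 11377 genes (80.3% in either direction, limma, adjusted p under 0.05). With most genes passing, 6 of 7 members in either direction is near the background. The median difference of the members was -0.40 on the log2 scale and that of all genes was -0.13. The summed level of 9 smooth muscle markers had a median of 7.63 in wild type and 4.99 in the Bmal1 knock out. Most of this sum came from Mylk (mean 5.21 in wild type and 3.72 in the Bmal1 knock out) and Tagln, both lower. Acta2, Actg2, Cnn1, Des, Lmod1 and Myl9 lay near 0 and had higher means, as for Actg2 (0.0816 and 0.233). Myh11, also near 0, was lower. These markers did not move together, and the part of muscle in the differences was not tested. In bulk tissue fewer cells of a type and less RNA per cell cannot be told apart.

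All 3 genes numbered 13 were lower, though Hoxa13 did not pass with a length score covariate, chosen after seeing the data (-0.27, adjusted p = 0.169). The lowest, median and highest levels of Hoxa13 were 4.69, 9.15 and 13.6 in the 18 wild type libraries and 1.89, 3.86 and 9.30 in the 18 Bmal1 knock out libraries, with 13 of the latter below all of wild type. Hoxa13 was 2.098-fold lower (log2 difference -1.07 ± 0.14 SE, adjusted p = 2.79e-08) and lower at all 6 times. Hoxb13 was at 100.7, 141 and 175 in wild type and at 49.0, 72.9 and 107 in the Bmal1 knock out, so 14 knockout libraries lay below every wild type library. It was 1.86-fold lower (-0.90 ± 0.14, adjusted p = 3.62e-07), again at all 6 times. Hoxd13 was at 6.71, 9.77 and 15.3 in wild type and at 3.89, 6.10 and 9.98 in the knockout, which is 1.75-fold lower (-0.80 ± 0.14, adjusted p = 4.2e-06). The ranges overlapped for all members, as they did for all but 1.27% of genes.

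On the log2(rescaled FPKM + 0.5) scale, which understates changes of low genes, Hoxd12, Hoxd11 and Hoxd10 differed less. Hoxd11 had a median of 1.13 in wild type (0.593 to 1.92) and 0.806 in the knockout (0.240 to 1.27), a difference of -0.40 ± 0.12 (adjusted p = 0.00186). Hoxd12 had medians of 0.767 and 0.425 and differed by -0.40 ± 0.09 (adjusted p = 0.00034 in the fit without a filter, where 35.5% of 20481 rows were lower). Hoxd10 had medians of 1.32 and 1.03 and was lower at 4 of 6 times, with a difference of -0.31 ± 0.14 (adjusted p = 0.0372), a call lost in 18 of the fits that left out a library or a replicate number. Hoxd11 was lost without replicate number 2, and both genes were lost after quantile normalization (-0.16, adjusted p = 0.179, and -0.06, adjusted p = 0.673).

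Cdx2 was higher and Cdx1 did not pass. Cdx2 was at 58.7, 82.1 and 109 (lowest, median and highest) in wild type and at 90.4, 129 and 155 in the Bmal1 knock out, with 16 knockout libraries above every wild type library. It was 1.55-fold higher (0.63 ± 0.08, adjusted p = 3.24e-09) at all 6 times. Cdx1 was at 123, 150.2 and 215 in wild type and at 109, 155 and 217 in the knockout, a difference of 0.08 (95% interval -0.06 to 0.21, adjusted p = 0.293). The ratio of Hoxb13 to Cdx2 within a library, which no scale factor enters, had a median of 1.70 in wild type (0.926 to 2.99) and 0.604 in the Bmal1 knock out (0.351 to 0.940), and 17 of 18 knockout libraries lay below all of wild type. With the same covariate Hoxd11 differed by -0.41 (adjusted p = 0.0674) and Hoxd10 by -0.38 (adjusted p = 0.179), and like Hoxa13 neither passed. Leaving out the libraries of low scale factor removed 9 from the Bmal1 knock out, including all 3 at ZT12 and all 3 at ZT16. A fit of cosine and sine terms replaced the mean per time there, so its levels rest on a curve at the missing times. In that fit Hoxd13 (-0.60, adjusted p = 0.0827), Hoxd11 (-0.30, adjusted p = 0.297) and Hoxd10 (-0.05, adjusted p = 0.882) no longer passed. Without rescaling of the deposited FPKM, which moved the all-gene median to -0.89, Cdx2 was lower by 0.27 on the log2 scale in place of higher.

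Loss of MR in the gut went with the lowest levels of the Hoxd genes in the study, and with a higher level of Cdx2. Of 7 members tested, 5 were lower and 1 was higher than in wild type, against 41.3% lower and 24.7% higher of all genes (66% in either direction). The median difference was -0.82 over the members and -0.08 over all genes. Both knockout comparisons share the wild type libraries, so their values are given side by side and their likeness is no further result.

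Hoxd13 was at 6.71, 9.77 and 15.3 (lowest, median and highest) in wild type and at 1.51, 4.53 and 12.7 in the MR knock out, with 15 knockout libraries below every wild type library. It was 2.31-fold lower (-1.21 ± 0.14, adjusted p = 7.6e-09), against 1.75-fold in the Bmal1 knock out. The knockout libraries also spread more, from 1.78, 1.51 and 5.40 at ZT20 to 5.93, 8.76 and 12.7 at ZT0. Hoxd11 had medians of 1.13 in wild type and 0.389 in the MR knock out (0.0361 to 2.19) and was 1.79-fold lower (-0.84 ± 0.12, adjusted p = 1.47e-07). Hoxd10 had medians of 1.32 and 0.558 and was 1.78-fold lower (-0.84 ± 0.14, adjusted p = 4.25e-06). Hoxd12 had medians of 0.767 and 0.263 and differed by -0.71 ± 0.09 (adjusted p = 1.16e-07 without a filter, 28.8% of rows lower). Each of the 4 Hoxd genes was lower at 5 of 6 times. They were at their lowest in the same 2 of 3 libraries at ZT20, where Hoxd12 was at 0.0218 and 0.0245, Hoxd11 at 0.0722 and 0.0361 and Hoxd10 at 0.139 and 0.0697.

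Hoxb13 was at 24.5, 88.0 and 149 in the MR knock out, with 13 libraries below all of wild type, and was 1.77-fold lower (-0.82 ± 0.14, adjusted p = 5.82e-06) at all 6 times. Hoxa13 moved least of the Hox members, with a median of 6.52 (2.33 to 11.8) against 9.15 in wild type (-0.42 ± 0.14, adjusted p = 0.0117). That call was lost without replicate number 1 or 2, and with a length score covariate Hoxa13 differed by 0.11 (adjusted p = 0.531), the other way. Cdx2 was at 74.7, 123 and 186 and was 1.54-fold higher (0.62 ± 0.08, adjusted p = 1.94e-08), with 14 libraries above every wild type library. Cdx1 differed by 0.03 (95% interval -0.10 to 0.17, adjusted p = 0.678), and after quantile normalization it was lower in the MR knock out (-0.19) and in the Bmal1 knock out (-0.23). The ratio of Hoxb13 to Cdx2 had a median of 0.699 (0.143 to 1.39), and 13 of 18 libraries lay below all of wild type. All ranges overlapped, against 0.598% of genes whose ranges did not. Summed markers of 8 immune genes were at 1.201 to 16.2 in the MR knock out and 1.43 to 4.52 in wild type, and those of 8 fibroblast genes at 0.05 to 15.1 and 0.46 to 2.64. The part of these cells in the differences was not tested.

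**Figure D3:**
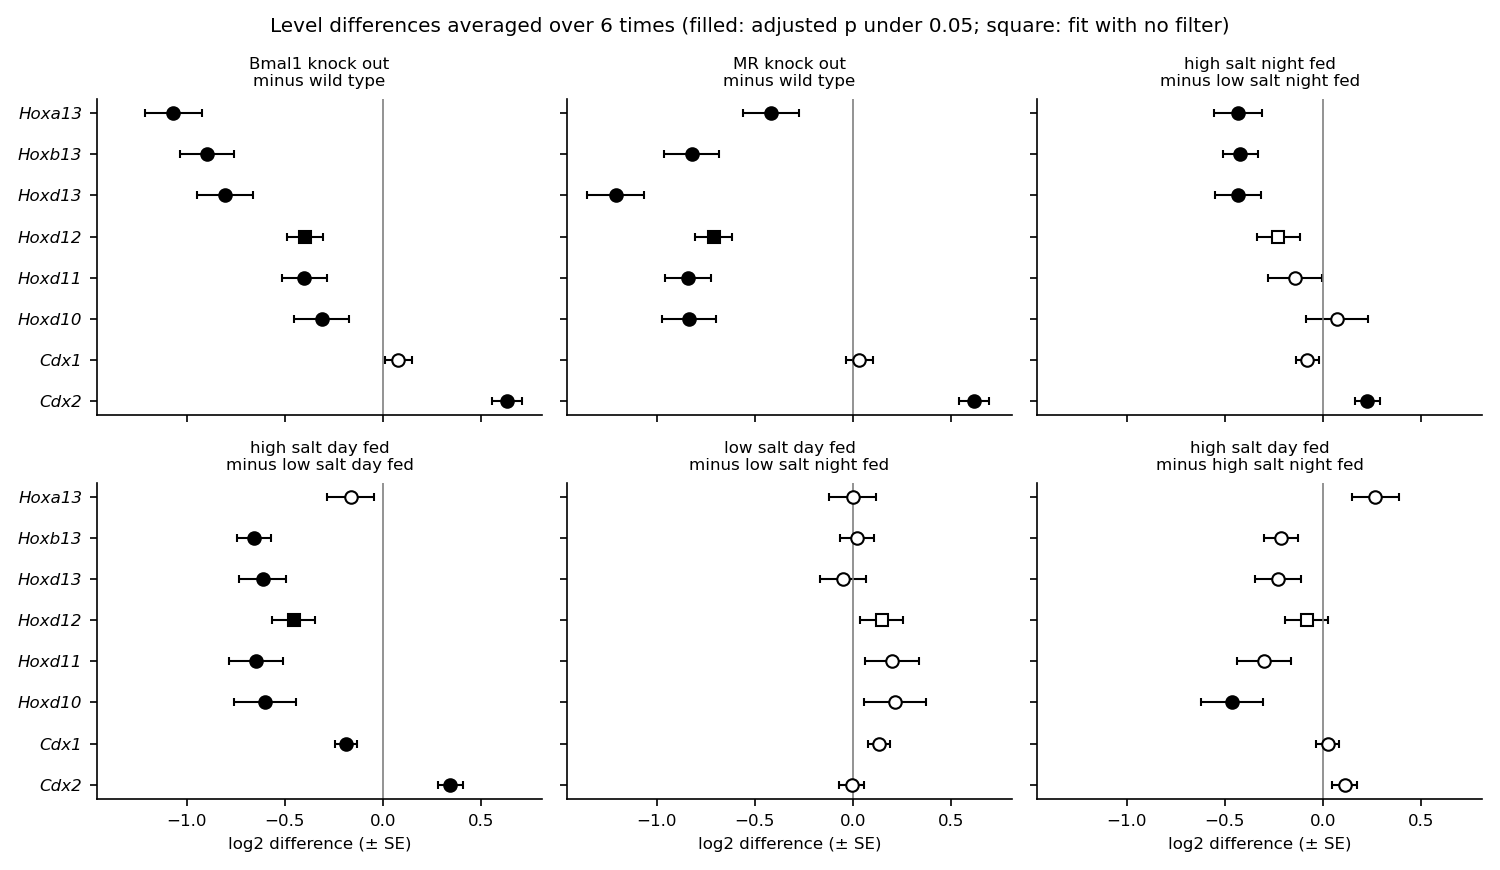
Log2 difference ± SE (horizontal axis) of each of the 8 genes in 6 comparisons, averaged over 6 times, with filled points for an adjusted p under 0.05 and squares for Hoxd12 in the fit without a filter. All 6 Hox genes lie below 0 and Cdx2 above 0 in both knockout genotypes, and Hoxb13 and Hoxd13 below 0 and Cdx2 above 0 in both salt comparisons.

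High salt food went with lower Hoxb13 and Hoxd13 and higher Cdx2 than low salt food in night fed and in day fed mice. In night fed mice 3 of 7 members were lower and 1 was higher, against 19.6% and 15.4% of all genes (35% in either direction). In day fed mice 5 were lower and 1 was higher, against 7.05% and 7.79% (14.8% in either direction). The members' median difference was -0.14 by night, against -0.02 over all genes, and -0.60 by day, against 0.01. These 2 comparisons share no library. The summed level of 8 immune markers had a median of 6.48 on low salt and 3.72 on high salt by night. By day it went the other way, from 4.48 on low salt to 5.62 on high salt. That of the smooth muscle markers was 6.78 on low salt and 6.17 on high salt by night. It was 5.55 and 7.22 by day, mostly from Mylk (mean 3.74 and 5.496). Tagln, the next highest of the smooth muscle markers, was not higher on high salt by day, and the others lay near 0 and went both ways. The part of immune cells and muscle in the differences was not tested.

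Hoxb13 was at 104, 149.5 and 233 (lowest, median and highest) on low salt by night and at 63.5, 116 and 203 on high salt by night (-0.42 ± 0.09, adjusted p = 0.000271). By day it was at 112, 153 and 245 on low salt and at 45.4, 101.1 and 153 on high salt, which is 1.58-fold lower (-0.66 ± 0.09, adjusted p = 2.8e-07). Hoxb13 was lower on high salt at all 6 times in both feeding schedules. Hoxd13 was at 8.04, 14.4 and 19.0 on low salt and 5.11, 10.2 and 19.5 on high salt by night (-0.43 ± 0.12, adjusted p = 0.00371), lower at 4 of 6 times, a call lost without replicate number 3. By day it was at 8.52, 12.7 and 19.4 on low salt and 4.62, 8.47 and 11.6 on high salt (-0.61 ± 0.12, adjusted p = 0.000139). Both genes overlapped between diets, as did all members, against 0.202% of genes by night and 0.00879% by day whose ranges did not overlap.

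The other members differed between schedules in what passed. Hoxa13 was lower on high salt by night, with medians of 7.15 and 4.70 (-0.43 ± 0.12, adjusted p = 0.00444), and by day had medians of 7.12 and 5.51 (-0.16 ± 0.12, adjusted p = 0.379). Hoxd11 was lower by day, with medians of 1.75 on low salt and 1.15 on high salt (-0.65 ± 0.14, adjusted p = 0.000564), and by night the difference was -0.14 (adjusted p = 0.420). Hoxd12 was lower by day (-0.46 ± 0.11, adjusted p = 0.00391 without a filter, 4.11% of rows lower) and differed by -0.23 by night (adjusted p = 0.140). Hoxd10 was lower by day, with medians of 2.59 and 1.499 (-0.60 ± 0.16, adjusted p = 0.00571, lost without replicate number 3), and by night had medians of 2.15 and 2.30 (0.07, adjusted p = 0.739). Tested as a difference of differences, the salt effect by day minus that by night passed for 1 of 7 members, Hoxd10 (-0.68 ± 0.22, adjusted p = 0.0283), against 8.75% of genes lower and 11% higher (19.7% in either direction). This call was lost without replicate number 1 or 3, without the third library of high salt day fed mice at ZT16 alone, without the libraries of low scale factor (-0.44, adjusted p = 0.321) and with a length score covariate (-0.56, adjusted p = 0.0522). For Hoxd11 the difference of differences was -0.50 ± 0.19 (adjusted p = 0.0582).

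Cdx2 was higher on high salt, with medians of 80.5 and 90.8 by night (0.23 ± 0.06, adjusted p = 0.0047, lost without replicate number 3 at an adjusted p of 0.106) and of 81.0 and 103 by day (0.34 ± 0.06, adjusted p = 7.95e-05). High salt night fed mice held 5 of the 14 libraries of low scale factor, and without rescaling, which moved the all-gene median to -0.45, Cdx2 by night was lower by 0.27 on the log2 scale in place of higher (adjusted p = 0.00443). Cdx1 was lower on high salt by day, with medians of 195 and 181 (-0.19 ± 0.06, adjusted p = 0.0172), a call lost without replicate number 1 or 3, and differed by -0.08 by night (adjusted p = 0.270). The ratio of Hoxb13 to Cdx2 had medians of 1.90 on low salt and 1.18 on high salt by night, and of 1.90 and 0.952 by day, with 2 and 11 of 18 high salt libraries below all low salt libraries of the same schedule.

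Between feeding times few members passed in mean level, 0 on low salt and 1 on high salt. On low salt, none of 7 members passed between day and night feeding (adjusted p 0.201 to 0.997, 1 member at an unadjusted p under 0.05, limma), against 3.33% of all genes (1.04% higher and 2.29% lower). The member past the unadjusted threshold was Cdx1, at 176 by night and 195 by day as medians (0.13 ± 0.06). On high salt, 1 of 7 passed, Hoxd10 (-0.46 ± 0.16, adjusted p = 0.025), with medians of 2.30 by night and 1.499 by day, against 12.9% of genes lower and 14.7% higher (27.6% in either direction). This call was lost without any 1 of 3 libraries, the first of high salt night fed mice at ZT0 and the third of high salt day fed mice at ZT16 or ZT20, and also when the libraries of low scale factor were left out (-0.23, adjusted p = 0.514). With Hoxd10, 4 of 7 members were at an unadjusted p under 0.05 on high salt. Of these, Hoxb13 differed by -0.21 (adjusted p = 0.0632), Hoxa13 by 0.27 (adjusted p = 0.0874) and Hoxd11 by -0.30 (adjusted p = 0.0904).

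Around the day, the members had no 24 h rhythm past the threshold in wild type or MR knock out mice. Several did under timed feeding, near the shares of all genes. In wild type 0 of 7 and in the MR knock out 0 of 7 passed (0 at an unadjusted p under 0.05 in each, limma F test of the 24 h cosine and sine terms), against 17.7% and 21.7% of all genes. In the Bmal1 knock out 1 passed (56.7% of genes), on low salt 2 by night (22.6%) and 3 by day (42.2%), and on high salt 5 by night (57%) and 2 by day (31.6%). The genotypes and the feeding groups were fitted separately, and no test compared their rhythms. With array weights, 5 of 7 members passed in wild type, so a missing call there depends on how libraries are weighted.

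Hoxb13 was the only member to pass in all 4 feeding groups, at amplitudes (from the mean to the peak of the fitted curve, log2) of 0.34 to 0.41, and its rhythm differed between feeding schedules. The times shown here and for the other members are those of the highest and lowest means. On low salt by night it was at 115, 135 and 104 at ZT4 and at 226, 179.8 and 215 at ZT16 (amplitude 0.41 ± 0.09, adjusted p = 0.00218, peak at ZT14.5). On low salt by day it was at 145, 112 and 119 at ZT0 and at 189, 230.2 and 198 at ZT12 (0.34 ± 0.09, adjusted p = 0.00828, peak at ZT10.1). In these groups the 3 libraries at the high time lay above the 3 at the low time. The low salt call by night was lost without replicate number 1 (adjusted p = 0.114) and that by day without replicate number 2 (adjusted p = 0.219).

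On high salt by night Hoxb13 was at 89.9, 93.0 and 63.5 at ZT4 and at 175, 203 and 148 at ZT16 (0.40 ± 0.09, adjusted p = 0.00069, peak at ZT14.0). On high salt by day it was at 139.6, 132.9 and 126.1 at ZT12 but at 87.2, 52.0 and 45.4 at ZT16, its lowest values in that group (0.39 ± 0.09, adjusted p = 0.00344, peak at ZT7.00). That call was lost in the fit of the compared libraries alone (adjusted p = 0.0669) and without replicate number 1 (adjusted p = 0.106). The difference in rhythm between day and night feeding passed for Hoxb13 on high salt (amplitude of the difference 0.63 ± 0.13, adjusted p = 0.000486, 32.5% of genes) and on low salt (0.41 ± 0.13, adjusted p = 0.0268, 38.6% of genes). At ZT16 the 3 high salt night fed libraries (148 to 203) and the 3 high salt day fed libraries (45.4 to 87.2) were furthest apart. The low salt difference was lost with scaling to epithelial markers (0.33, adjusted p = 0.0557) and in 7 of the fits that left out a library or a replicate number.

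Cdx2 passed under night feeding, with a peak early in the light phase. On low salt by night it was at 82.1, 107 and 125 at ZT4 and at 59.5, 61.3 and 63.3 at ZT16 (0.29 ± 0.06, adjusted p = 0.00222, peak at ZT4.43), and on high salt by night it peaked at ZT1.79 (0.23 ± 0.06, adjusted p = 0.00625). The low salt call was lost on FPKM as deposited (adjusted p = 0.146) and without replicate number 2 or 3, and the high salt call without the libraries of low scale factor (0.22, adjusted p = 0.0901) and without replicate number 1 or 3. Cdx2 did not pass under day feeding, and its rhythm differed between the schedules on low salt (0.38 ± 0.09, adjusted p = 0.0041) and on high salt (0.34 ± 0.09, adjusted p = 0.0103). With a length score covariate the low salt difference was 0.21 (adjusted p = 0.128), and it was lost without replicate number 3 (adjusted p = 0.0913). The high salt difference was lost without replicate number 1 (adjusted p = 0.356) or 3 (adjusted p = 0.0914).

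Hoxa13 passed under day feeding. On low salt by day it was at 9.69, 9.54 and 10.2 at ZT0 and at 3.63, 4.28 and 2.28 at ZT20 (0.66 ± 0.12, adjusted p = 0.000388, peak at ZT5.15). On high salt by day its amplitude was 0.36 ± 0.12 (adjusted p = 0.0483, peak at ZT2.00), a call lost in the fit of the compared libraries alone (adjusted p = 0.152) and in 10 of the fits that left out a library or a replicate number. The difference between schedules passed on low salt (0.72 ± 0.17, adjusted p = 0.00397), and was 0.23 with a length score covariate (adjusted p = 0.342). Cdx1 passed on low salt by day (0.21 ± 0.06, adjusted p = 0.00944, peak at ZT12.2).

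The Hoxd genes passed mainly on high salt by night. There Hoxd10 was at 5.69, 5.42 and 3.61 at ZT8 and at 1.75, 1.12 and 0.904 at ZT20 (0.71 ± 0.16, adjusted p = 0.00083, peak at ZT9.87). Hoxd11 (0.47 ± 0.14, adjusted p = 0.0125, peak at ZT9.86), Hoxd13 (0.37 ± 0.12, adjusted p = 0.0222, peak at ZT11.0) and Hoxd12 (0.34 ± 0.11, adjusted p = 0.0341 without a filter, 35.9% of rows, peak at ZT8.78) peaked within a few hours of it. All 5 libraries of low scale factor in this group were taken at ZT8 or ZT12, and without them no library was left at ZT8. In the cosine and sine fit without them the amplitudes were 0.30 for Hoxd10 (adjusted p = 0.638), 0.28 for Hoxd11 (adjusted p = 0.568) and 0.36 for Hoxd13 (adjusted p = 0.271). The call of Hoxd13 was also lost without the second library at ZT0 or the third at ZT12. In the Bmal1 knock out Hoxd10 passed (0.48 ± 0.14, adjusted p = 0.0132, peak at ZT17.8) and differed from wild type (0.61 ± 0.20, adjusted p = 0.0459, 31.2% of genes), and 8 of the 9 libraries of low scale factor there were taken at ZT12 to ZT20. Without the 9, in the cosine and sine fit with no library at ZT12 or ZT16, the difference from wild type was 0.90 (adjusted p = 0.138). No member's rhythm differed between the MR knock out and wild type (0.835% of genes) or between salt diets by night (12.3%) or by day (11.3%), with 0, 1 and 1 of 7 at an unadjusted p under 0.05 in limma.

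**Figure D4:**
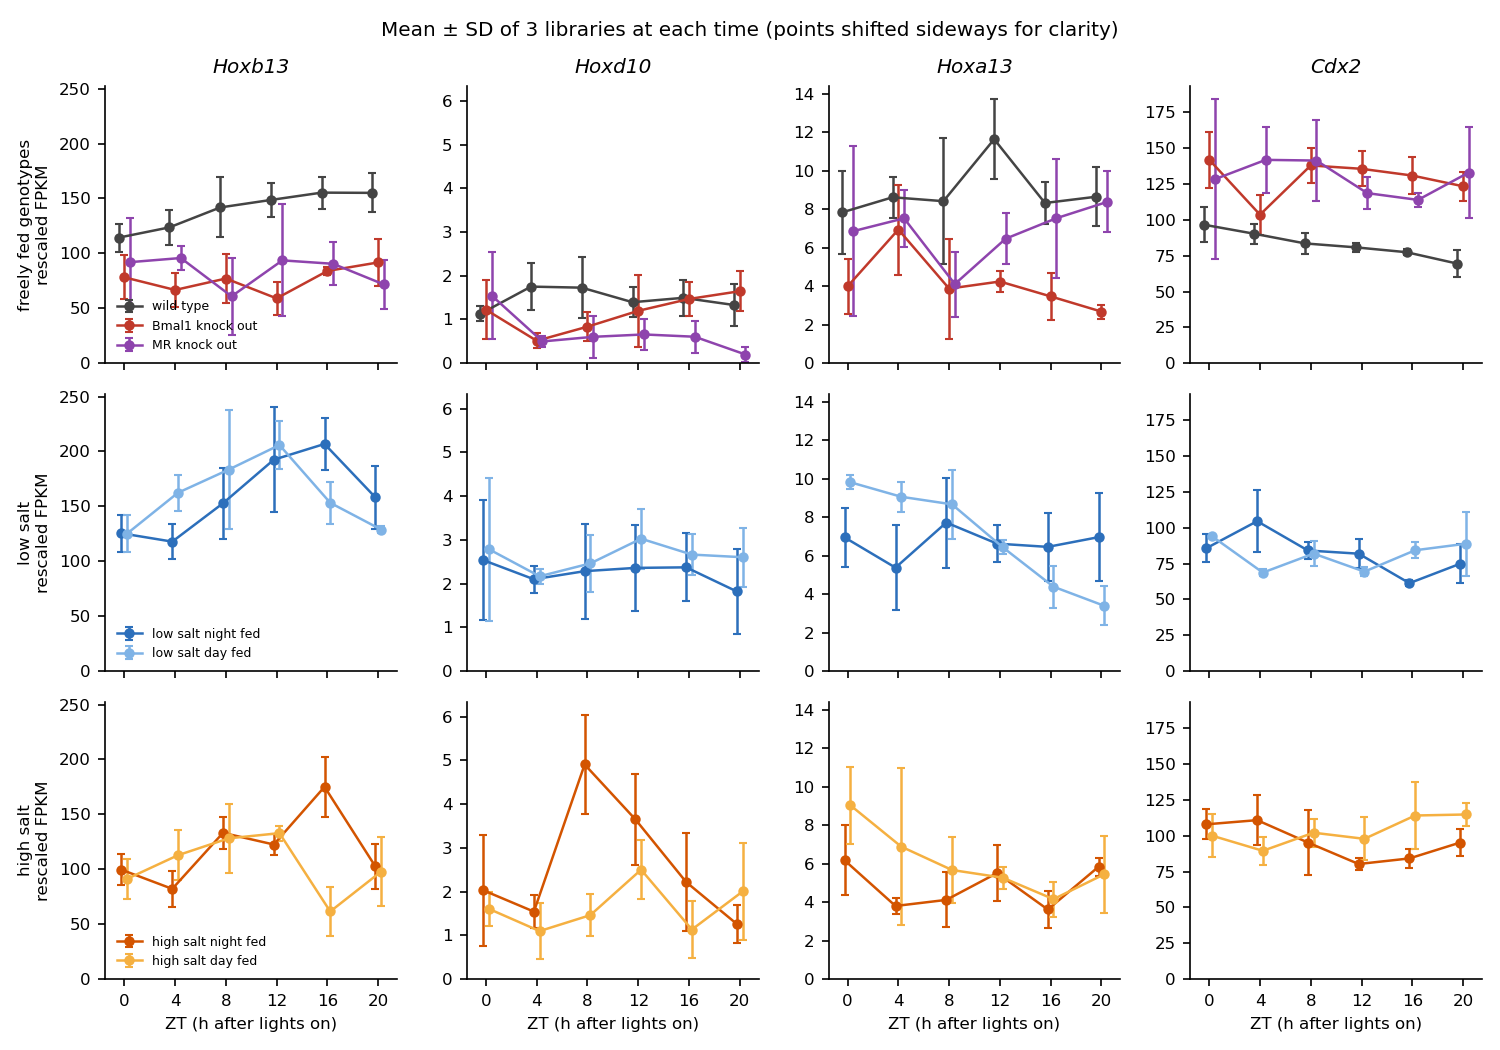
Rescaled FPKM (vertical axis) of Hoxb13, Hoxd10, Hoxa13 and Cdx2 by zeitgeber time (horizontal axis, h), as mean ± SD of 3 libraries, with the genotypes, low salt groups and high salt groups in rows. Hoxb13 at ZT16 is high in the high salt night fed mice (148 to 203) and low in the high salt day fed mice (45.4 to 87.2).

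From library to library within a condition and time, the 4 Hoxd genes rose and fell together while the pairs of Hoxa13 with them did not pass. Deviations from the mean of the condition and time were correlated over all libraries (Pearson's r, permutation within groups with 100000 resamples, Benjamini-Hochberg over 28 pairs). Of 28 pairs 18 passed, 12 with a positive and 6 with a negative r. The 6 pairs of Hoxd genes had r of 0.72 to 0.85 (adjusted p = 3.11e-05 each, permutation test) and were positive in all 7 conditions, with the highest r for Hoxd11 and Hoxd10. These 2 genes may share reads with Gm28309 and lie next to each other. The median r of all tested genes with Hoxd13 was 0.008. The share at or above the r of Hoxd11 was 0.00879%, and it counts Hoxd13 with itself.

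Hoxb13 followed the Hoxd genes less closely, with r of 0.46 to 0.55, the last for Hoxd13 (Spearman's rho 0.60, adjusted p = 0.000187, permutation test). Within conditions r of Hoxb13 and Hoxd13 ranged up to 0.95 in wild type and was 0.38 in the MR knock out. Hoxa13 had r of -0.10 to 0.15 with the other 5 Hox members (adjusted p 0.36 to 0.885, permutation test). Within conditions its r varied, with Hoxd11 from -0.83 in the Bmal1 knock out to 0.47 on high salt by night, and with Hoxb13 from -0.39 on high salt by day to 0.71 in the MR knock out. Cdx2 deviated against Hoxa13 (r -0.58, adjusted p = 3.11e-05, permutation test), Hoxd13 (r -0.44, adjusted p = 0.000299) and Hoxb13 (r -0.33, adjusted p = 0.0305, lost without the 2 farthest libraries at an adjusted p of 0.0963, and at 0.0671 when libraries of low scale factor were left out). Cdx1 and Cdx2 deviated together (r 0.50, adjusted p = 3.11e-05, permutation test), and Cdx1 went with Hoxb13 (r 0.45) and against Hoxa13 (r -0.47). Many genes did likewise, since 18.3% of all tested genes had an r with Cdx1 at or above that of Cdx2. With Hoxa13, 84.2% of genes were at or above the r of Cdx1 and 91.7% at or above that of Cdx2. For Cdx2 this share was 89.7% with Hoxb13 and 99.9% with Hoxd13, and for Cdx1 with Hoxb13 it was 2.58%. The length score moved with some members within groups, with r of 0.73 for Hoxa13, -0.84 for Cdx1 and -0.56 for Cdx2, against -0.05 for Hoxd13 and -0.26 for Hoxb13. Its part in the pairs of Hoxa13, Cdx1 and Cdx2 was not tested, and on FPKM as deposited r of Hoxa13 with Cdx2 was 0.20 and that of Hoxd13 with Cdx2 was 0.08.

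**Figure D5:**
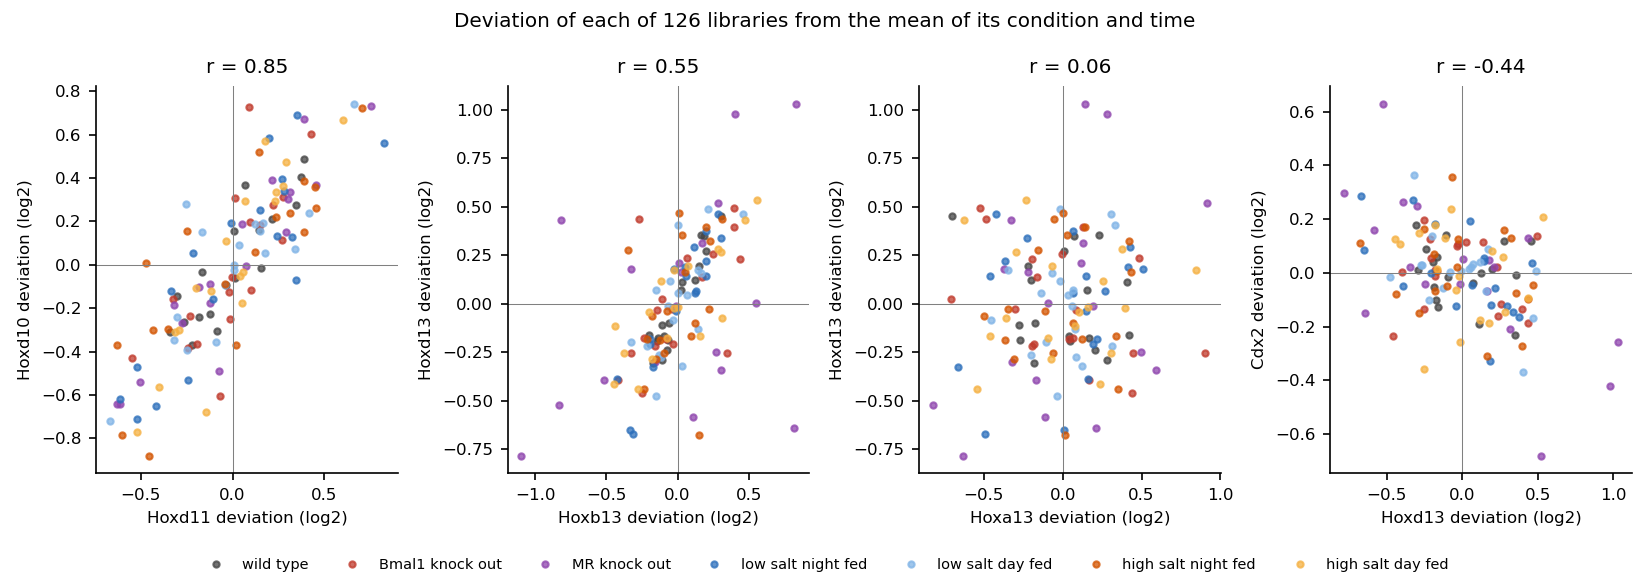
Deviation (log2) of each library from the mean of its condition and time for 4 pairs of genes, 1 on each axis, with colours for the conditions. Hoxd11 and Hoxd10 fall along a line (r 0.85), Hoxb13 and Hoxd13 less so (r 0.55), Hoxa13 and Hoxd13 form a cloud (r 0.06) and Hoxd13 and Cdx2 slope down (r -0.44).

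The genes most like each member over the 42 means of condition and time give the same picture as a description, with no test. Hoxd11 and Hoxd10 were most like each other (r 0.96), and Hoxd13 was most like Hoxd11 (r 0.93) and then Aldh1l1 (r 0.92) and Slc46a1 (r 0.91). Slc46a1, the proton-coupled folate transporter, was also among the 3 genes most like Hoxd11 (r 0.93). Hoxb13 was most like Prdx6 (r 0.90), Ttr (r 0.89) and Cela1 (r 0.89). Hoxa13 was most like Abhd2, Gna13 and Trappc10 (r 0.94 each), Cdx1 was most like Acp5 (r 0.85), and Cdx2 was most like Fam83f (r 0.85) and Prap1 (r 0.83). These means share their libraries and scale factors.

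Of the other 33 Hox genes 16 were tested. In the Bmal1 knock out 6 of them were higher and 7 lower (31.1% and 49.2% of all genes), with a median of 0.02, and in the MR knock out 0 were higher and 7 lower (24.7% and 41.3%). Hoxa6 was lower in the Bmal1 knock out (-1.55 ± 0.20, adjusted p = 8.88e-09) and in the MR knock out (-0.80 ± 0.20), and Hoxa11, the neighbour of Hoxa13 in the cluster, was lower in both (-0.69 ± 0.10 and -0.34 ± 0.10). Hoxb4 (1.06 ± 0.18) and Hoxa7 (0.44 ± 0.09), from the middle of their clusters, were higher in the Bmal1 knock out. On high salt by day 6 of 16 were higher and 0 lower (7.79% and 7.05% of all genes), among them Hoxb7 (0.56), Hoxb4 (0.51), Hoxb8 (0.48) and Hoxb6 (0.47), while Hoxb13 of the same cluster was lower. On high salt by night 2 were higher, Hoxb4 (0.53) and Hoxa2 (0.26), and 1 was lower, Hoxa11 (-0.32), against 15.4% and 19.6% of all genes.

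Fellow intestinal factors and targets of CDX2 were counted from lists made with earlier results of these data known. Of 15 tested transcription factors of the intestinal epithelium, 11 were lower and 2 higher in the Bmal1 knock out (49.2% and 31.1% of all genes), with Foxa1 (-0.73 ± 0.07) and Hnf4a (-0.47 ± 0.06) among the lower. In the MR knock out 10 were lower and 1 higher (41.3% and 24.7% of all genes), with Sox9 (-0.68), Klf5 (-0.68) and Foxa2 (-0.59) among the lower. Of 10 genes known to be bound or activated by CDX2, 7 were lower and 2 higher in the Bmal1 knock out, beside the same shares of all genes. The lower ones included Slc26a3, the chloride and bicarbonate exchanger of the colon (-1.99 ± 0.13), Cftr (-1.10) and Gucy2c (-0.96). In the MR knock out 4 were lower and 1, Krt20, was higher (0.998), against 41.3% and 24.7% of all genes. On high salt by day 4 were higher and 0 lower (7.79% and 7.05% of all genes), among them Isx (0.57), Krt20 (0.44) and Cdh17 (0.22). By night 1 was higher, Isx (0.29), and 3 were lower (15.4% and 19.6% of all genes). The lower ones were Gucy2c (-0.33), Cdh17 (-0.24) and Hnf4a (-0.13), so Cdh17 went opposite ways in the schedules.

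Markers of other gut regions were counted beside the members. Of 16 small intestine genes 10 were tested, with 4 higher and 3 lower in the Bmal1 knock out (31.1% and 49.2% of all genes) and 4 higher and 1 lower in the MR knock out (24.7% and 41.3%). Fabp2, a fatty acid binding protein of the small intestine, was higher in both (1.04 and 1.49), while Slc5a1 (-0.75) and Apob (-1.05) were lower in the Bmal1 knock out, and Alpi (1.74) and Fabp1 (1.37) were higher in the MR knock out. None of 9 stomach and foregut genes passed the filter on low values. The part of sampling position in the differences of the members was not tested.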

How the data were processed

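Poly(A) RNA of mouse colon was extracted with TRIzol and sequenced with the Illumina TruSeq stranded mRNA kit, per the labels. Reads were aligned with TopHat2 2.1.1 to mm10 and quantified with Cufflinks 2.2.1, per the submitters' processing notes. The sources used here give neither the annotation nor the options of Cufflinks. The values the authors deposited are FPKM, with 1 table per condition, so comparisons between conditions cross tables. FPKM were divided by median-of-ratios scale factors over 6966 genes with FPKM of at least 1 in every library. The log2 of rescaled FPKM + 0.5 was tested with limma 3.58.1 in R 4.3.3 (trend and robust) for genes with a mean of at least 1 in a condition. The 54 genotype libraries (36 residual degrees of freedom) and the 72 diet libraries (48) were fitted separately, with 1 mean per condition and time and Benjamini-Hochberg adjustment over 11377 genes at a threshold of 0.05. The scripts were tested on simulated data. No 2 libraries were identical. Replicate numbers did not pair the samples.

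The 8 genes and all lists were chosen with earlier results of these data known. Named genes were all 8 members, up to 4 genes of each list with the smallest adjusted p, and the 3 genes most like each member. A few list genes and 1 list that this rule covers are not reported here. Alternatives were the pseudocount, the filter, FPKM as deposited, quantile normalization, array weights, a replicate block, a fit of the compared libraries alone, leaving out the libraries of low scale factor, and leaving out each library or replicate number. In limma, leaving out the libraries of low scale factor used a cosine and sine fit per condition in place of 1 mean per time. A length score covariate and scaling to 6 epithelial markers (Epcam, Krt8, Krt18, Krt19, Cdh1 and Vil1) were added after seeing the data. Promoters are from RefSeq (GRCm38.p6).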

Additional observations from a re-analysis of the deposited data

Results flagged for a closer look

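Effects of 1 contrast differed between 2 groups, by a test of the difference, in 7 results, all from limma with adjusted p under 0.05. The salt effect on Hoxd10 by day minus that by night was -0.68 on the log2 scale. The 24 h rhythm of Hoxd10 differed between the Bmal1 knock out and wild type with an amplitude of the difference of 0.61. Between day and night feeding on low salt, the amplitude of the rhythm difference was 0.72 for Hoxa13, 0.41 for Hoxb13 and 0.38 for Cdx2. Between day and night feeding on high salt, it was 0.63 for Hoxb13 and 0.34 for Cdx2. The rhythm difference of Hoxd10 in the Bmal1 knock out was lost in 21 of the fits that left out libraries, and that of Hoxb13 on high salt in none.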

How the results depend on the processing

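Counts are members with an adjusted p under 0.05 in limma, of 8 (7 where Hoxd12 did not pass the filter). The count for the MR knock out against wild type (6) and for salt by day (6) stayed within 1.5 times under all alternatives, as did the count of correlated pairs (16 to 18). With a pseudocount of 0.1, and again with no filter, 0 members differed in rhythm between the Bmal1 knock out and wild type and 1 was rhythmic in high salt day fed mice. On FPKM as deposited, 5 were rhythmic in the Bmal1 knock out, 1 on low salt by night and 4 on high salt by day. There 4 differed in rhythm between the Bmal1 knock out and wild type, 5 between high salt schedules, 4 between salt diets by night and 2 by day. In level, 4 differed between high salt schedules, 7 between salt diets by night and 3 in the salt effect by day minus by night. With these values some directions turned on the log2 scale: Cdx1 (-0.82) and Cdx2 (-0.27) in the Bmal1 knock out, Hoxb13 (0.24) between high salt schedules, Hoxd10 (-0.35) and Cdx2 (-0.27) with salt by night, and Cdx1 (0.34) in the salt effect by day minus by night. Turned correlations were those of Hoxa13 with Cdx1 (r 0.26) and Cdx2 (r 0.20), Hoxb13 with Cdx2 (r 0.13), and Hoxd13 with Cdx1 (r 0.32) and Cdx2 (r 0.078). The share of all calls that were higher moved there from 38.7% to 3.75% in the Bmal1 knock out, from 37.5% to 16.4% in the MR knock out, from 44.0% to 0.721% for salt by night, from 52.5% to 25.5% for salt by day, from 53.3% to 99.5% between high salt schedules, from 31.1% to 49.4% between low salt schedules, and from 55.7% to 99.0% for the salt effect by day minus by night. The all-gene median moved by over 0.1 in 5 of these comparisons, to -0.89, -0.24, -0.45, 0.41 and 0.42 (salt by day excepted).

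With quantile normalization, 1 member was rhythmic in wild type and 3 in the Bmal1 knock out, 3 differed in level between high salt schedules, 2 in the salt effect by day minus by night, and 1 in rhythm between salt diets by day. Cdx1 turned in the Bmal1 knock out (-0.23) and the MR knock out (-0.19), and r of Hoxa13 with Cdx1 was 0.055, with 41.9% higher calls between low salt schedules and 44.2% for the salt effect by day minus by night. With array weights, 5 were rhythmic in wild type, 4 in the Bmal1 knock out, 1 in the MR knock out, 5 on low salt by night and 5 on high salt by day. Rhythm differences were then 6 for the Bmal1 and 4 for the MR knock out, 5 between low salt and 4 between high salt schedules, and 4 between salt diets by night and 4 by day. Level differences were 3 between low salt schedules, 6 between high salt schedules and 6 in the salt effect by day minus by night. In a fit of the compared libraries alone, 3 differed in rhythm between the Bmal1 knock out and wild type, and 2 in wild type, 3 in the Bmal1 knock out and 0 in high salt day fed mice were rhythmic. Replicate numbers did not pair the samples (mean correlation of same-numbered libraries -0.25 to 0.12), and with a replicate block 2 members were rhythmic in the Bmal1 knock out, with no other count moved by over 1.5 times.

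Leaving out the libraries of low scale factor meant a cosine and sine fit with whole times missing. There 3 members differed in level in the Bmal1 knock out, 0 between high salt schedules and 0 in the salt effect by day minus by night. In that fit 0 were rhythmic in the Bmal1 knock out, 0 differed in rhythm from wild type, and 1 was rhythmic on high salt by night and 1 by day. With the length score as a covariate, 1 was rhythmic in wild type and 1 in the MR knock out. In level, 1 differed between low salt schedules, 3 between high salt schedules and 0 in the salt effect by day minus by night, and 1 differed in rhythm between salt diets by day. Turned directions were Cdx1 in the Bmal1 knock out (-0.33) and Hoxa13 (0.11) and Cdx1 (-0.23) in the MR knock out. Scaled to epithelial markers, 2 were rhythmic in the Bmal1 knock out, 2 differed in rhythm from wild type, 2 in level between high salt schedules and 2 in rhythm between salt diets by day. Cdx1 turned in the MR knock out (-0.25), where the share of higher calls was 9.08% and the all-gene median -0.34, and that share was 73.3% for salt by day, 68.7% for salt by night, 39.01% between high salt schedules and 45.2% for the salt effect by day minus by night. Leaving out each replicate number or library gave 4 to 6 members for the Bmal1 knock out, 5 to 6 for the MR knock out, 2 to 4 for salt by night, 4 to 6 for salt by day, 0 to 4 between high salt schedules and 0 to 2 for the salt effect by day minus by night. Rhythmic members were 0 to 3 in the Bmal1 knock out, 1 to 2 on low salt by night, 1 to 4 on low salt by day, 2 to 5 on high salt by night and 0 to 3 on high salt by day. Rhythm differences were 0 to 1 for the Bmal1 knock out, 0 to 3 between low salt schedules, 1 to 3 between high salt schedules, 0 to 2 between salt diets by night and 0 to 1 by day. No direction of a called member turned there. The estimated depth limits Hoxd12 most. The causes of these changes were not tested.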
